A study of Mus with 2 samples.

Results

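The genes described here were Atf4 and 9 genes linked to it in the integrated stress response: Ddit3, Trib3, Chac1, Sesn2, Asns, Phgdh, Psat1, Shmt2 and Mthfd2. They were chosen by name, as ATF4 with its amino acid, one-carbon and stress targets, and their probes were found through the RefSeq transcript accession that the array files give for each probe. All 10 genes were found, with 13 probes, out of 13530 named genes measured on at least 1 array. On each array all 13 of them stood well above background, so that no difference given for these genes is a bound. Bone marrow derived macrophages (BMDMs) were grown for 7 d with 10 ng/mL of M-CSF and then kept for 24 h under M2 conditions, that is, with 10 ng/mL of IL-4. The mice were males of the strain C57BL6/J, at 10 weeks of age. During these 24 h one culture received 10 µM GW4064, a synthetic agonist of the bile acid receptor FXR, and the other its solvent DMSO. M-CSF and IL-4 were common to both. Each condition was measured on 1 Agilent 1-colour array, so there was no biological replicate and no test, and every difference below is one between these 2 arrays. The free-text description of the GW4064 sample repeats the wording of the DMSO sample, while its title, source and treatment labels all say GW4064, which was followed here.

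In the integrated stress response, kinases that sense amino acid shortage, unfolded protein in the endoplasmic reticulum (ER), heme shortage or viral RNA phosphorylate the translation factor eIF2. General protein synthesis then slows, while the mRNA of the transcription factor ATF4 is translated more, so that ATF4 is regulated to a large part at translation, which an mRNA array does not measure. ATF4 in turn drives genes for amino acid synthesis, amino acid uptake, tRNA charging and mitochondrial one-carbon metabolism, along with feedback genes that end the response or, when stress lasts, lead to cell death. In macrophages, serine and one-carbon metabolism supplies building blocks for nucleotides, glutathione and methyl groups during activation.

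With GW4064, mRNA signals were slightly higher for Chac1 (0.46 on the log2 scale), Phgdh (0.41) and Shmt2 (0.36), by less for Atf4 (0.16) and Psat1 (0.15), and nearly level for Trib3 (0.057) and Ddit3 (-0.0041). Of the 10 genes, 9 were higher and 1, Ddit3, was marginally lower on the GW4064 array, against 51.6% of all measured genes that were higher. The differences lay between -0.0041 for Ddit3 and 0.46 for Chac1 on the log2 scale, with a median of 0.26, whereas the median of all measured genes was 0.0068 with an interquartile range from -0.12 to 0.13. Of the 10 genes, 8 lay above that range and 0 lay above the 95th percentile of all genes, a log2 difference of 0.53. None of the 10 was 1.5-fold or more higher, against 4.39% of all genes, and none was 1.5-fold or more lower, against 5.56%. At 2-fold the counts were also 0 and 0, against 2.04% and 2.71% of all genes. Among the 7116 genes whose level lay within the range of these 10, the median difference was 0.0074, and 7.42% had a difference at or above 0.26.

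**Figure D1:**
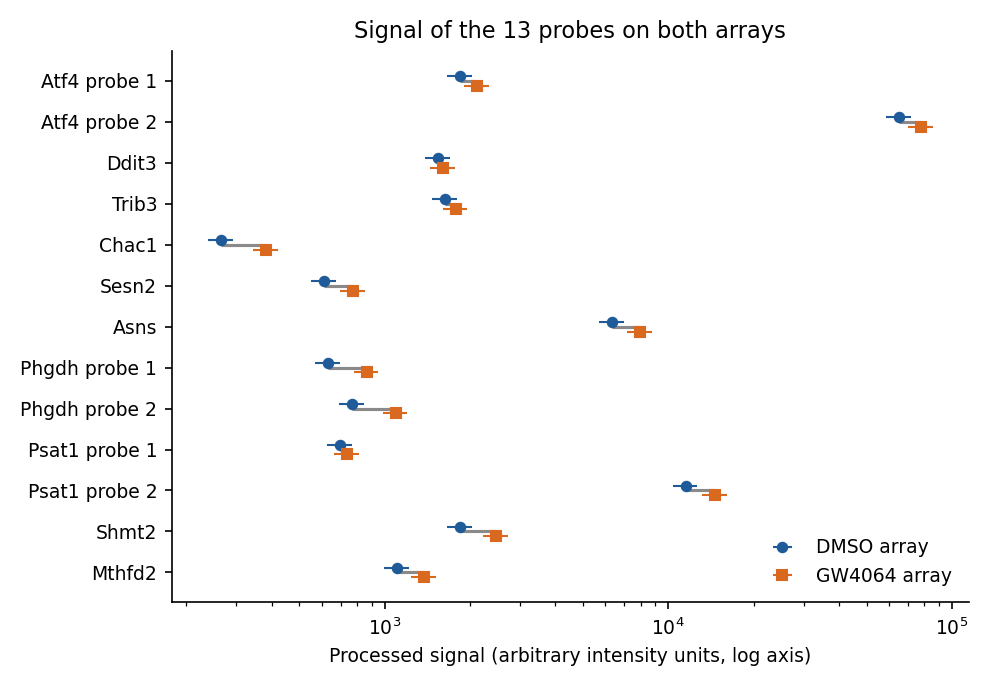
Processed signal of each of the 13 probes on the DMSO array (circles) and the GW4064 array (squares), on a log axis, before any scaling between arrays. Bars are the error that the scanner software gives for each signal, 1 spot per array. The signal was higher on the GW4064 array for each probe, by little for Ddit3, from 1543 to 1610, and by most for Chac1, from 266 to 381.

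The size of a difference was judged against the error stated by the scanner software and the scatter of copies within the arrays, which hold no difference between cultures. The scanner software gave each of these signals an error between 10.0% and 10.2%, which makes a software error of about 0.20 on the log2 difference of a single probe. By that error, differences more than 2 errors above 0 were found for 2 of the 10 genes, Chac1 and Phgdh, against 5.06% of all genes. Differences that far below 0 were found for 0 of the 10, against 6.25% of all genes. Copies of a probe within the arrays varied less. For 196 probes printed 10 times with a mean signal of 200 or more, the log2 difference varied with an SD of 0.072 (median over these probes), and 8 of the 10 genes, all but Ddit3 and Trib3, were higher by more than 2 such SDs, 0.14. That narrower rule was met by 23.1% of all genes in the same direction. In the lower direction it was met by 21.7% of all genes and 0 of the 10. Psat1 passed it narrowly, at 0.146 against 0.144, as the mean of probes at 0.015 and 0.28. For Atf4, 1 probe at 0.13 fell short of it. Once the median difference of spots within 1000 µm was taken off, Atf4 had 0.085 and Psat1 0.073, both below 0.14. The rest of the 8 stayed above it. The rule uses the median SD, and some of the 196 probes had an SD above 0.1158. Between different probes for the same gene, the difference diverged by a median of 0.10 over 2709 genes with 2 probes.

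**Figure D2:**
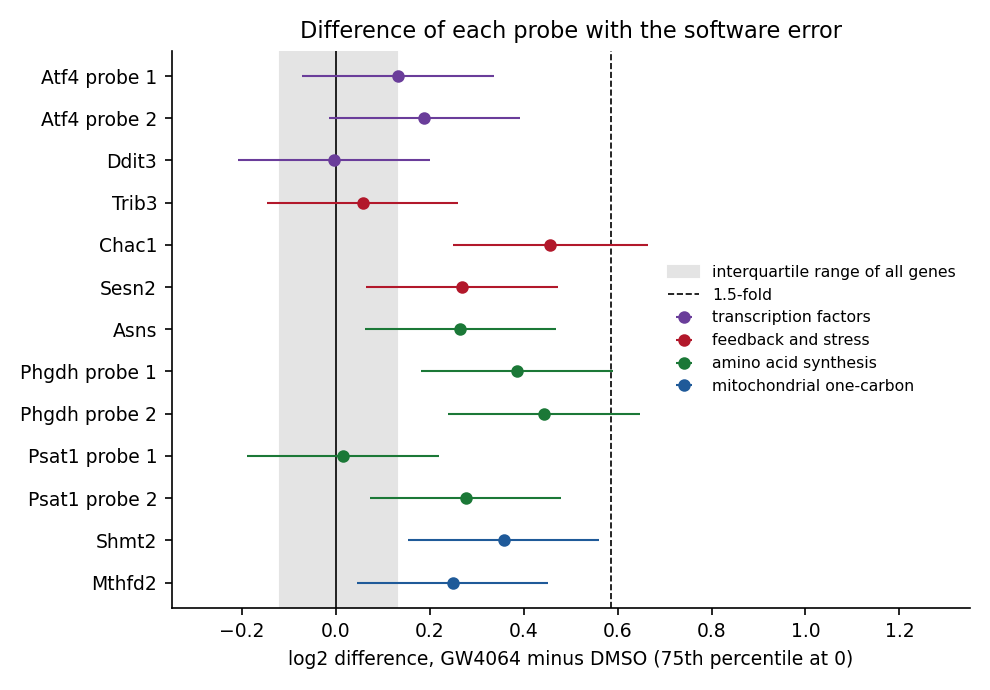
Log2 difference, GW4064 minus DMSO, of each of the 13 probes after the 75th percentile of each array was set to 0. Bars are the software error, the grey band is the interquartile range of 13530 genes and the dashed line is 1.5-fold. All points lie left of 1.5-fold, those of Ddit3, Trib3 and 1 probe for Psat1 lie inside the band, and 1 probe for Atf4 lies at its edge.

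The transcription factor genes Atf4 and Ddit3 had a median difference of 0.078, the lowest of the 4 roles into which the 10 genes were put. Atf4 had 2 probes for NM_009716. One read 1845 without and 2115 with GW4064, a log2 difference of 0.13. The other read 65239.6 and 77795, a log2 difference of 0.19. Both were higher by less than the software error of a single probe. Spots within 1000 µm of the brighter probe were themselves higher on the GW4064 array, with a median of 0.14, and once such local medians were taken off, Atf4 as a whole had a difference of 0.085 in place of 0.16 ± 0.14 (software error of the mean of both probes). Ddit3 encodes CHOP, a factor that ATF4 induces and that is linked to cell death under lasting ER stress. Its probe gave 1543 with DMSO and 1610 with GW4064, which came to a log2 difference of -0.0041 ± 0.20 after scaling. A share of 47.2% of all genes had a difference as low or lower. In the RefSeq annotation of GRCm38.p6 the span of Ddit3 overlaps that of Mars1, the gene for methionyl-tRNA synthetase, whose probe differed by 0.13.

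The feedback and stress genes Trib3, Sesn2 and Chac1 were higher by 0.057 to 0.46, and differences between them were not tested. Trib3 encodes a pseudokinase that binds ATF4 and CHOP and dampens them. Its signal was 1637 with DMSO and 1782 with GW4064, a log2 difference of 0.057 ± 0.20, which 38.6% of all genes reached or passed. Chac1 encodes an enzyme that breaks down glutathione and lies downstream of ATF4 and CHOP. It had the lowest signals of the 13 probes, 266 with DMSO and 381 with GW4064, and the largest difference, 0.46 ± 0.21 or 1.37-fold, which 6.35% of all genes reached or passed. A background correction that draws dim signals together (normexp) lowered it to 0.25. Sesn2 encodes Sestrin 2, a leucine sensor that restrains the growth kinase complex mTORC1. It gave 614 with DMSO and 774 with GW4064, a difference of 0.27 ± 0.20, and 12.1% of genes reached or passed it. Its spot lay in what is called a damaged area here, with 4 other spots that differed 8-fold or more between arrays within 300 µm. No other probe for Sesn2 was found. Of these 3 genes, only Chac1 passed 2 software errors.

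Sesn2 is also under p53, and a list of 8 other p53 target genes was higher by a median of 0.26, with 7 of 8 genes higher and 0 past 1.5-fold. Mdm2, which encodes the ligase that degrades p53, had 0.40. Cdkn1a, which encodes the cell cycle inhibitor p21, had 0.34 as the mean of 2 probes that disagreed, at 0.14 and 0.55. Zmat3 had 0.33, and Trp53inp1 was the lower one, at -0.13. The part of this route in the Sesn2 value was not tested.

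Of the genes for amino acid synthesis, only Phgdh and Psat1 had 2 probes, and those for Phgdh gave similar values. Phgdh encodes phosphoglycerate dehydrogenase, which takes carbon from glycolysis into serine. Its first probe gave 633 with DMSO and 865 with GW4064, a log2 difference of 0.39, and its second gave 769 and 1093, a difference of 0.44. The mean was 0.41 ± 0.14, or 1.33-fold, which 7.21% of all genes reached or passed, and the spots around both probes showed local medians near 0, at -0.014 and 0.014. Psat1 encodes the aminotransferase of the next step. Its probes for NM_177420 disagreed. One gave 698 with DMSO and 738 with GW4064, a difference of 0.015, and the other gave 11520.0 and 14599, a difference of 0.28, with a local median of 0.11 around its spot. The mean, 0.15 ± 0.14, therefore rests on the second probe. Psph, which encodes the last enzyme of the same route, was named for its place in the pathway after its value was seen, and had 0.16 with 0.14 and 0.17 on its 2 probes. Asns encodes asparagine synthetase, the gene in which amino acid control of transcription has been studied most. It gave 6322 with DMSO and 7951 with GW4064, a difference of 0.27 ± 0.20 or 1.20-fold, and 12.3% of all genes reached or passed it.

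Shmt2 and Mthfd2, which encode enzymes of one-carbon metabolism in mitochondria, were both higher. Shmt2 encodes the serine hydroxymethyltransferase that splits serine into glycine and a one-carbon unit. Its signal was 1844 with DMSO and 2471 with GW4064, a difference of 0.36 ± 0.20 or 1.28-fold, and 8.60% of all genes reached or passed it. Mthfd2 encodes the enzyme that oxidizes this unit further. It gave 1107 with DMSO and 1377 with GW4064, a difference of 0.25 ± 0.20 or 1.19-fold, reached or passed by 13.3% of genes. Neither passed 2 software errors. Both were higher under each of the 13 other settings, but several of these could not change the value of a gene with 1 probe. Their lowest values, 0.17 for Shmt2 and 0.061 for Mthfd2, came from centring on spike-in probes. Asns, Chac1 and Phgdh were also higher under all 13, and Sesn2 under the 12 that kept it.

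**Figure D3:**
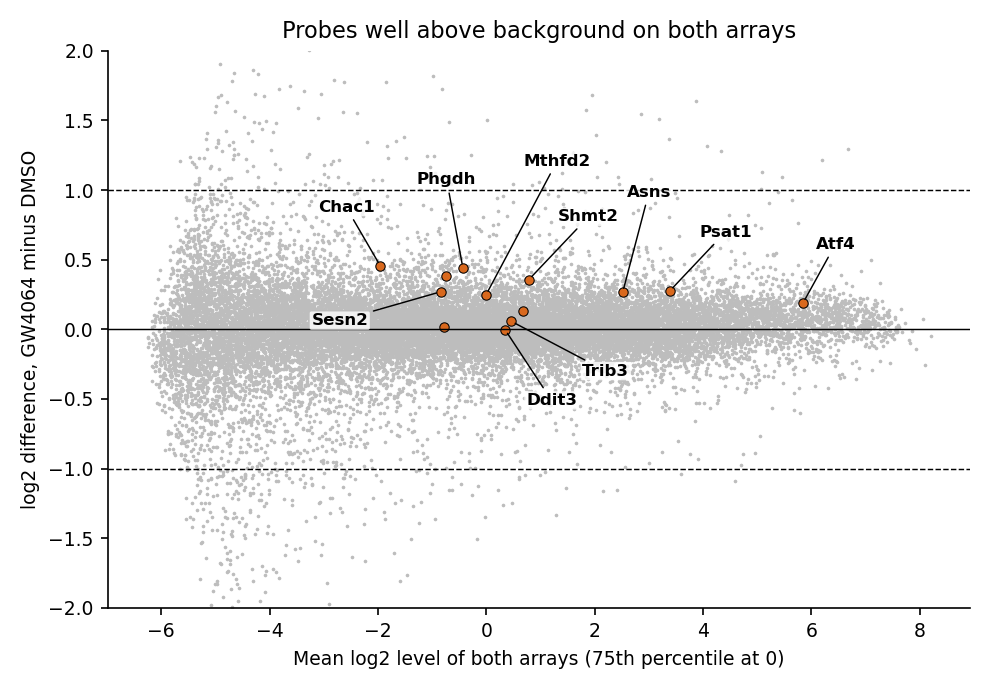
Log2 difference, GW4064 minus DMSO, against the mean log2 level of both arrays for 21707 probes well above background on both (grey), with the 13 probes of the 10 genes in orange and dashed lines at 2-fold. The axis leaves out 59 grey points beyond 2 on either side. The orange points lie within the cloud of other probes, mostly in its upper part, and Chac1 is the one at the lowest level.

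The other serine, glycine, folate and proline enzymes did not share one direction. Values were obtained for 16 of 20 such genes, 10 higher and 6 lower, with a median of 0.11. The highest was Tyms, thymidylate synthase, at 0.90 ± 0.22 from signals of 72.0 and 141, the only one past 1.5-fold. Cbs and Gldc, enzymes of cysteine synthesis and glycine cleavage, followed with 0.32 ± 0.38 and 0.30 ± 0.21. Aldh1l1, which removes one-carbon units as carbon dioxide in the cytosol, had -0.29 ± 0.20. Mthfd1l, the mitochondrial enzyme that releases formate after Mthfd2, had -0.28 ± 0.14, with -0.31 and -0.24 on its 2 probes, opposite in sign to Shmt2 and Mthfd2. Shmt1, the cytosolic relative of Shmt2, had -0.12 ± 0.20 with probes at -0.28 and 0.034, the brighter of which read 53.9 with DMSO and 46.3 with GW4064.

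Enzymes of this kind also vary with cell growth, and a list of 9 proliferation genes had a median of 0.18, with 7 higher, 2 lower and 0 past 1.5-fold. Cdk1 had 0.33, Mcm2 0.29 and Ccne1 0.23, all of them drivers of the cell cycle or of DNA replication. Pcna had -0.065. Myc, whose product drives serine and one-carbon genes beside ATF4, had -0.0027. Whether growth took part in the differences of Phgdh, Shmt2 and Mthfd2 was not tested.

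Upstream of ATF4, the mRNA of the kinases and factors around eIF2 differed little. The activity of these kinases and the phosphorylation of eIF2 were not measured. Of 17 genes 16 were measured, 11 higher and 5 lower, with a median of 0.061 and 0 past 1.5-fold. The kinase genes were singled out for their role. Eif2ak3, which encodes the ER stress kinase PERK, had 0.027, Eif2ak4, which encodes the amino acid sensor GCN2, had -0.019, Eif2ak2, which encodes the RNA sensor PKR, had 0.068, and Eif2ak1, which encodes the heme sensor HRI, had -0.14. Eif2b4, a subunit of the exchange factor that recharges eIF2, stood highest at 0.50 ± 0.20, but its spot had 11 others with 8-fold differences within 300 µm. Eif2s2, a subunit of eIF2, had 0.16, and Impact, an inhibitor of GCN2, had 0.15. Nck1 had -0.19 and Ppp1r15b, which encodes the constitutive partner of the eIF2 phosphatase, had -0.083.

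**Figure D4:**
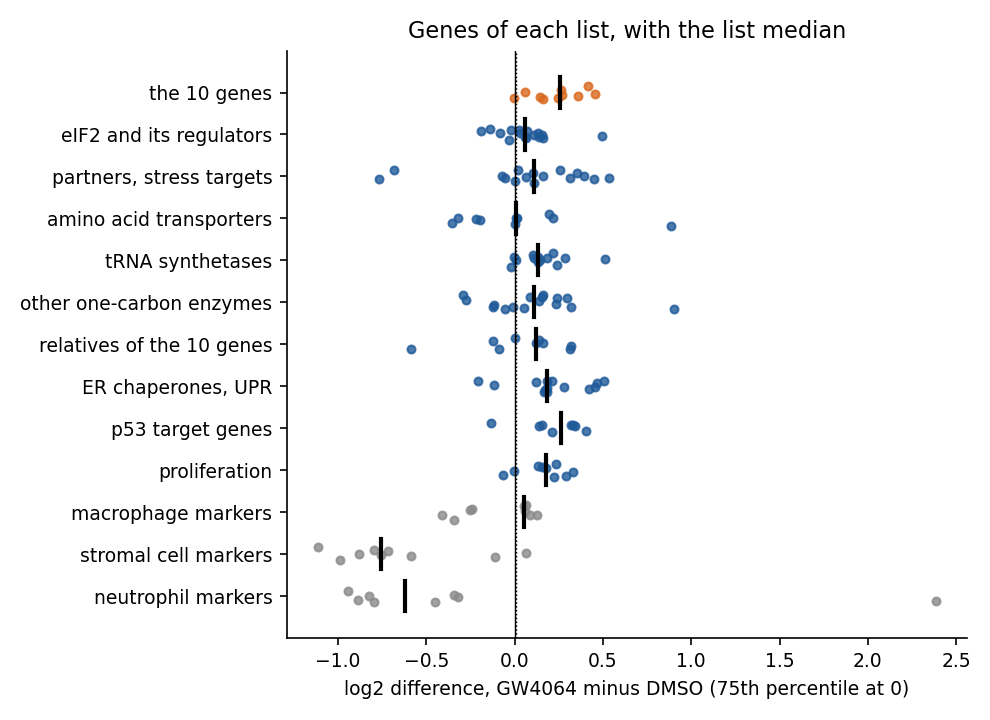
Log2 difference, GW4064 minus DMSO, of each measured gene in the 10 genes (orange), in 9 related gene lists (blue) and in 3 lists of cell type markers (grey). Thick bars are list medians and the dotted line is the median of all genes, 0.0068. The 10 genes and the p53 targets have the highest medians, and the stromal and neutrophil markers lie mostly below 0.

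Partners and further stress targets of ATF4 were spread in both directions. Of 19 genes 16 were measured, 12 higher and 4 lower, with a median of 0.11, and Fgf21, Stc2 and Adm2 were not well above background on either array. Jdp2, a bZIP repressor, had 0.54 ± 0.20. Gdf15, a stress-induced secreted factor, had 0.45 ± 0.20, and Tnfrsf10b, a death receptor that CHOP induces, had 0.40 ± 0.21. Vldlr, which encodes a lipoprotein receptor, had -0.77 ± 0.36 from signals of 41.2 and 25.3. Bcl2l11, which encodes the pro-apoptotic protein BIM, had -0.68 ± 0.21 from signals of 329 and 215. Those 2 were the only members of the list past 1.5-fold, both lower. Atf3 had -0.069.

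Amino acid transporter genes, which ATF4 also controls, showed no common direction. All 10 were measured, 6 higher and 4 lower, with a median of 0.0055. Slc3a2, the heavy chain that several amino acid exchangers share, had -0.36 ± 0.20, and Slc7a11, which takes up cystine, had -0.32 ± 0.21. Slc1a4, a carrier of neutral amino acids, had -0.22 ± 0.20. Slc7a1, which takes up arginine, and Slc38a2, which takes up neutral amino acids, had 0.22 and 0.20. Slc43a1 was past 1.5-fold at 0.89 ± 0.32, from dim signals of 24.9 and 48.1 and with 6 spots of 8-fold difference around it. Without the damaged areas the median of the list was -0.11.

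The genes for tRNA charging were higher by small amounts. Of 13 genes 11 were higher and 2 lower, with a median of 0.14 and 0 past 1.5-fold. Wars, tryptophanyl-tRNA synthetase, which is also induced by interferon, had 0.51 ± 0.14 with 0.49 and 0.54 on its 2 probes, the only one beyond 2 software errors. Yars had 0.28 ± 0.22 and Iars 0.24 ± 0.20. Nars and Gars had -0.019 and -0.0014.

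Relatives and namesakes of the 10 genes were compared as well. Of 10 such genes 9 had values, 6 higher and 3 lower, with a median of 0.12. Trib1, a relative of Trib3 that acts on C/EBP factors, was the one past 1.5-fold, at -0.59 ± 0.14 with -0.62 and -0.55 on its 2 probes, and 1 of its spots had 10 others with 8-fold differences nearby. Sesn1 had 0.32 ± 0.20, close to the 0.27 of Sesn2. Chac2 had -0.088 ± 0.20, and Mthfd1 had 0.16 ± 0.20. Ddit4, which shares only its name series with Ddit3 and encodes an inhibitor of mTORC1, had 0.31 ± 0.20. This list shares genes with others above. Sesn1 is also counted among the p53 targets, and Atf5 and Ddit4 among the stress targets of ATF4. Shmt1, Mthfd1 and Mthfd2l are also counted among the other one-carbon enzymes.

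ER chaperones and other genes of the unfolded protein response, of which Ddit3 is also a part, were higher by a median of 0.18. Of 14 genes 12 were higher, 2 were lower, 0 were past 1.5-fold and 4 were higher by more than 2 software errors. Manf had 0.51 ± 0.20, with 6 spots of 8-fold difference near its own. Creld2, a probe printed several times, had 0.47 ± 0.083, with 2 such spots near at least 1 of its copies. Sdf2l1 had 0.46 ± 0.20. All 3 encode ER proteins made under protein folding load. Atf6, which encodes a sensor of that load, had -0.21 and Sel1l -0.12.

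The cultures were also compared by cell type markers. Of 10 macrophage markers 9 had a matched probe, and all 9 were well above background on both arrays, with differences from -0.41 for Ptprc to 0.13 for Cd14. Of these, 5 were higher and 4 lower, with a median of 0.055. Their summed signal, in units of the 75th percentile, was 167 with DMSO and 149 with GW4064, a sum to which the brightest genes add most. Of 10 stromal cell markers 9 were measured, of which 8 were lower, and their summed signal was 22.0 with DMSO and 11.8 with GW4064, with the 2 lowest differences at -1.11 for Postn and -0.99 for Col1a2, and with Lum not well above background. Of 10 neutrophil markers 8 were measured, of which 7 were lower, down to -0.94 for Mpo, and Cebpe was higher at 2.39, and the summed signal was 11.6 and 7.56, with Retnlg not well above background. Of the lymphocyte markers reported here, Cd3d and Cd79a were not well above background on either array, Ms4a1 was so on the DMSO array only, and Cd3e had 0.18. The part of these cells in the differences of the 10 genes was not tested, and fewer cells of a type and less RNA per cell cannot be told apart in such bulk samples.

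**Figure D5:**
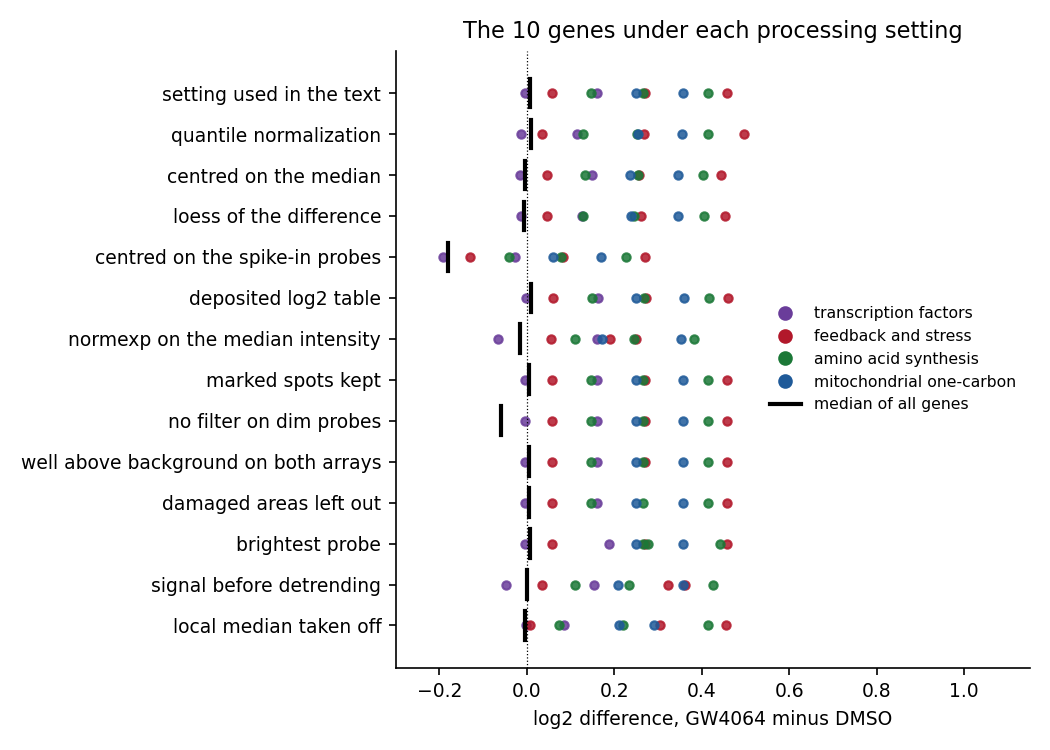
Log2 difference, GW4064 minus DMSO, of each of the 10 genes (points, coloured by role) and the median of all genes (black bars) in the setting used in the text and in 13 others. Centring on the spike-in probes moves all points and the median of all genes to the left together, and Sesn2 has no point where damaged areas are left out.

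The zero of these differences is set by scaling. Equal amounts of spike-in RNA in both samples were assumed and not checked. This RNA was 0.19 higher on the GW4064 array on the scaled log2 level (8 spike-in probes, from 0.032 to 0.24). Centred on it, the median of all genes became -0.18, the median of the 10 genes 0.069, and 6 of the 10 were higher, since Atf4 (-0.028), Psat1 (-0.042) and Trib3 (-0.13) then joined Ddit3 (-0.19) below 0. Relative to all genes, the median of the 10 was 0.25 higher in both scalings, and 9 of the 10 lay above the median of all genes. That likeness was nearly fixed in advance, since this centring takes the same amount off every log2 level of the GW4064 array. It therefore gives no support to the difference.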

How the data were processed

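BMDMs under M2 conditions were measured on 1 Agilent 1-colour array with DMSO and 1 with 10 µM GW4064. The scanner files that the authors deposited give spot intensity as processed by Feature Extraction 10.7.1.1 (per the labels), that is, with background subtracted and trends across the slide removed, and without normalization between arrays. A deposited table of log2 values was used as an alternative, and its column difference matched the one computed here for all 39200 probes kept on both arrays within 0.001, apart from a constant of 0.0022. The table holds a 75th percentile shift and a centring of each probe whose baseline stays unknown, and the column medians were 0.035 (DMSO) and -0.051 (GW4064). Its direction is given by the column names. The normalization and filter used in the study are not given in the sources used here.

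Processed signals were put on the log2 scale, and the 75th percentile of each array (signals of 1209 and 1265) was set to 0. Non-uniform spots (215 and 30) and outliers among copies were left out, copies were averaged and no spot was saturated. Of all probes, 57.4% and 58.5% were well above background. A probe measured on 1 array only was given on the other the lowest signal well above background or its own signal, whichever was higher, and probes measured on neither were left out. Probes were averaged per gene. RefSeq accessions (GRCm38.p6) named 26575 probes. The array design used mm9, so no coordinates are given. Both arrays shared 1 slide and 1 scan, which leaves no batch to test. Spots with 2 or more other spots differing 8-fold within 300 µm were called damaged areas and held 16.5% of the spots, among them 1 of the 13 probes. Dim spots and true differences count in this rule too, so it does not show physical damage, and the share was not compared with random scatter. Of the genes named without a remark on such spots, Eif2ak2, Mars1, Gars, Yars, Slc7a1, Cdkn1a and Trp53inp1 also had a spot in such an area.

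Conditions were not tested against each other, since precision is limited by the number of arrays, 1 in each. A software error of a difference combines the errors of both signals, taken as independent, also between probes. In simulated arrays for this comparison, with 39429 probes of which 200 were changed 4-fold, 200 were recovered and 0 others called at 2-fold. Changes of 4-fold are far larger than the differences of the genes described here, at most 0.46 on the log2 scale. The simulation therefore cannot show how well differences of that size are found. The genes, the lists and the rule for named genes (in each pathway list, the 3 largest differences each way and any past 2-fold, among genes measured on both arrays; marker lists and the lists added later are given by counts, medians or sums with examples) were chosen with earlier results of these data known. No list of genes of like pattern was drawn up, since 2 arrays give each gene 1 difference. A planned search of promoters for motifs was not run, as no sequences were used here. Python 3.11.15, pandas 2.3.3, scipy 1.17.1, statsmodels 0.14.6, R 4.3.3 and limma 3.58.1 were used.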

Additional observations from a re-analysis of the deposited data

How the results depend on the processing

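No paired analysis was possible because DMSO and GW4064 were measured on 1 array apiece. A value was taken as moved when it differed from the value in the text by more than the SD over copies, 0.072. The median of the 10 genes lay between 0.18 and 0.27 in 12 of 13 other settings, and the counts past 1.5-fold and 2-fold were 0 in all 13. Centring on spike-in probes gave 0.069 for the 10 genes, -0.13 for eIF2 and its regulators, -0.080 for partners and stress targets, -0.18 for amino acid transporters, -0.052 for tRNA synthetases, -0.075 for other serine and one-carbon enzymes, -0.069 for relatives of the 10 genes, -0.0038 for ER chaperones, 0.077 for p53 targets and -0.012 for proliferation, each by about the shift of all genes. Normexp on the median intensity (offset of 50) gave 0.18 for the 10 genes, -0.13 for transporters and 0.0011 for relatives. Leaving out damaged areas gave -0.11 for transporters, and taking the brightest probe gave 0.18 for p53 targets. The causes of these last shifts were not tested. Of 129 values of single genes 112 stayed within 0.072, and 3 changed sign, all when centred on spike-in probes. Part of that count was fixed in advance. Keeping marked spots, using no filter on dim probes and requiring both arrays left the 10 genes unchanged. Leaving out damaged areas did so for the genes kept, and the brightest probe did so for genes with 1 probe. The deposited table and centring on the median shifted the 10 genes by a constant below 0.072. The signal before detrending and the local median were added after the data were seen. Chac1, the dimmest of the 10 genes, lay between 0.25 and 0.50, and Psat1 between -0.042 and 0.28.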

Other observations

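Lists of genes that lie near the 10 genes in function, chosen after the arrays had been read and with earlier results of these data known, showed the following. Stress in mitochondria can reach ATF4 through the protease OMA1 and the messenger DELE1. Of 10 genes of that route and of mitochondrial protein quality control, all 10 were measured. All 10 were higher on the GW4064 array, against 51.6% of all measured genes, with a median of 0.19 and 0 past 1.5-fold. That median was about the 0.19 by which spike-in probes were higher. The list was not recomputed with centring on them or under any other setting. Hspe1, the co-chaperone of the mitochondrial chaperonin, had the largest value, 0.46 ± 0.12, but its 3 probes ran from 0.21 to 0.90. Dele1 had 0.30 ± 0.20, with 6 spots of 8-fold difference within 300 µm, and Lonp1, a mitochondrial protease that ATF4 induces, had 0.26 ± 0.20. The smallest was Atad3a at 0.049. Of 10 autophagy genes under ATF4, 5 were higher and 5 lower, with a median of -0.0026, from -0.21 for Ulk1 to 0.20 for Atg12. Sqstm1, an autophagy receptor often used as a readout of stress, had 0.0028.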
